A study of Mus musculus with 30 samples.

Results

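The genes described here encode 9 transcription factors of the liver, and were taken by symbol from the 2 deposited count tables, *Hnf4a*, *Foxa1*, *Foxa2*, *Foxa3*, *Cebpa*, *Nr1i2*, *Nr1i3*, *Nr1h4* and *Ppara*. All 9 were found among the 14173 genes of the tables, and all 9 passed the filter on low counts in every comparison. In the tables, on GRCm38, *Hnf4a* (ENSMUSG00000017950) lies at chr2:163506808-163572910, *Foxa2* (ENSMUSG00000037025) at chr2:148042877-148046969, *Foxa1* (ENSMUSG00000035451) at chr12:57540628-57546916 and *Foxa3* (ENSMUSG00000040891) at chr7:19013284-19023538. *Cebpa* (ENSMUSG00000034957) shares chromosome 7 at chr7:35119293-35121928. The receptor genes are spread out, with *Nr1i3* (ENSMUSG00000005677) at chr1:171213970-171220701, *Nr1h4* (ENSMUSG00000047638) at chr10:89454234-89533585, *Ppara* (ENSMUSG00000022383) at chr15:85734983-85802819 and *Nr1i2* (ENSMUSG00000022809) at chr16:38248323-38294824. Their levels in whole liver RNA were compared over 5 diets that differed in protein source, protein content and sulfur amino acids.

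Hepatocytes keep their identity through a small network of DNA-binding factors that activate each other and the genes of liver metabolism. *Hnf4a* encodes a nuclear receptor at the centre of that network, the *Foxa* genes encode forkhead pioneer factors that open chromatin, and *Cebpa* encodes a leucine zipper factor that drives gluconeogenic, urea cycle and lipid genes. A second tier senses small molecules. *Nr1i2* encodes PXR and *Nr1i3* encodes CAR, both sensors of foreign compounds that induce cytochromes P450. *Nr1h4* encodes FXR, the bile acid receptor, and *Ppara* encodes the fatty acid receptor that induces fat oxidation and ketogenesis in fasting.

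The mice were male C57BL6/J, 6 months old at the end, and each of the 30 livers gave 1 library, with 6 mice per diet. Cas-20% was a control diet with 20% casein (0.57 gm% methionine and 0.41 gm% cysteine), and Cas-5% held 5% casein (0.15 and 0.1 gm%). Soy-20% held 20% soy protein (0.22 and 0.22 gm%), Soy-20% + SAA was the same with added sulfur amino acids (0.58 and 0.41 gm%), and Soy-10% held 11.5% soy protein (0.13 and 0.13 gm%). All mice had first been on a 20% casein or 20% soy diet, then spent 12 weeks on their test diet, and were fasted for 4 h before the liver was taken. Cas-5% and Soy-10% differed from their controls in total protein as well as in sulfur amino acids, so those 2 changes cannot be told apart within a restriction.

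Libraries held 7694015 to 14565542 counts each, with a median of 10803734. Libraries 3 to 6 of Soy-20% + SAA stood apart: log2 levels rose with the GC content of a gene's final 200 transcript nucleotides, with slopes of 0.0558, 0.198, 0.199 and 0.225 per 10% GC in them, against −0.0818 to 0.047 in the other 26. Library 3 was only just above the range of the other 26, and libraries 4 to 6 were far above it. Results that use that diet were therefore also computed without those 4 libraries, and no fit left out libraries 4 to 6 alone. Hepatocyte markers were present in every liver, with summed levels of 60440 to 89680 CPM (counts scaled to the library total) over the 5 of 6 marker genes in the tables (*Alb*, *Apoa1*, *Ttr*, *Apob* and *Cps1*). Pancreatic acinar markers summed to 554.7 CPM in Soy-10% liver 4 and to at most 0.478 CPM in each of the other livers.

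The promoters of the 4 genes that passed the test under casein restriction are shown, because that comparison uses none of the libraries that stood apart. Each line gives the 250 bases before an annotated start, 5′ to 3′ on the strand of the gene, from RefSeq on GRCm38.p6. Capitals mark exact matches to 1 of 8 short motifs searched on both strands.
Cebpa, chr7:35119043-35119292, plus strand: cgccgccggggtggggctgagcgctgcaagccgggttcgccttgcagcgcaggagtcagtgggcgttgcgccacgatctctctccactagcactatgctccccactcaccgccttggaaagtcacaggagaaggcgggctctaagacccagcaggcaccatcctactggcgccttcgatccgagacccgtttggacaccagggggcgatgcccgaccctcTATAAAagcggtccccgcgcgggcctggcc
Hnf4a, downstream start, chr2:163546905-163547154, plus strand: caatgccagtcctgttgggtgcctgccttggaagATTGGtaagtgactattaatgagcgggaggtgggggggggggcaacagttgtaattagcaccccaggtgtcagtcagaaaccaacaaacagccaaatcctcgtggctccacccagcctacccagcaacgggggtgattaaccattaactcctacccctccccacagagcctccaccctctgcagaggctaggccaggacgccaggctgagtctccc
Foxa1, chr12:57546112-57546361, minus strand: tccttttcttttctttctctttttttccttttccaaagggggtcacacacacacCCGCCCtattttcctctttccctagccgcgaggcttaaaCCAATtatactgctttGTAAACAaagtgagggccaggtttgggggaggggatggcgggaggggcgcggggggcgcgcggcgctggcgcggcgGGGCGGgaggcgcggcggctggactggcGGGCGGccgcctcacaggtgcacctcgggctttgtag
Nr1i3, chr1:171213720-171213969, plus strand: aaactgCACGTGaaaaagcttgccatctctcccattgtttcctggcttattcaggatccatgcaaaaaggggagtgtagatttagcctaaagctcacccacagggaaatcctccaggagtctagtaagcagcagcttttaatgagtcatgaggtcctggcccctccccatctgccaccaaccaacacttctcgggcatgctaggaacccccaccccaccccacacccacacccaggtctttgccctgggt

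The *Cebpa* window held a TATA box (TATAAA) 30 bases before the start, a motif that 12.3% of 32544 mouse promoter windows of this length held. The *Foxa1* window held a forkhead motif (TGTTTAC, read on the other strand) 141 bases before the start, which 3.17% of windows held, with 3 GC boxes (GGGCGG, 33%) and a CCAAT box (CCAAT, 33.8%). The *Nr1i3* window held an E-box (CACGTG, 6.03%) 244 bases before the start, and the *Hnf4a* window shown a CCAAT box at 216 bases. A second *Hnf4a* window, at the upstream start, held a CCAAT box 192 bases and a GC box 44 bases before that start. Over all 12 windows of the 9 genes, the C/EBP motif TTGCNNAA (9.58% of all windows) and the CARE motif TGATGNAA of amino acid response genes (3.4%) had no match, and the receptor hexamer AGGTCA (14%) had a match in *Nr1h4* alone. No matches of different motifs overlapped in the windows shown, and a match describes letters, not binding.

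Over the 30 livers the 9 genes spanned a 26.6-fold range of mean normalized read count. These are 3′ tag counts, about 1 read per transcript end, so levels can be set side by side without dividing by length. *Hnf4a* was the most abundant with 3110, above 97.4% of all genes in the tables, followed by *Ppara* with 2315 and *Cebpa* with 2130. *Nr1h4* (938), *Nr1i3* (890), *Foxa2* (723), *Foxa3* (603) and *Nr1i2* (491) were intermediate. *Foxa1* was far lower with 117, above 54.3% of all genes, and its raw counts ran from 59 to 247 per liver. This order pools the diets, and neighbours changed places within some of them. Mean *Cebpa* was above mean *Ppara* in Soy-20% (2266 against 2097) and Soy-10% (2044 against 1986), and mean *Nr1i3* above mean *Nr1h4* in Cas-5% (1166 against 1000) and Soy-20% + SAA (840.4 against 828.1). Mean *Foxa3* was above mean *Foxa2* in Cas-5% (672.3 against 623.8).

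**Figure D1:**
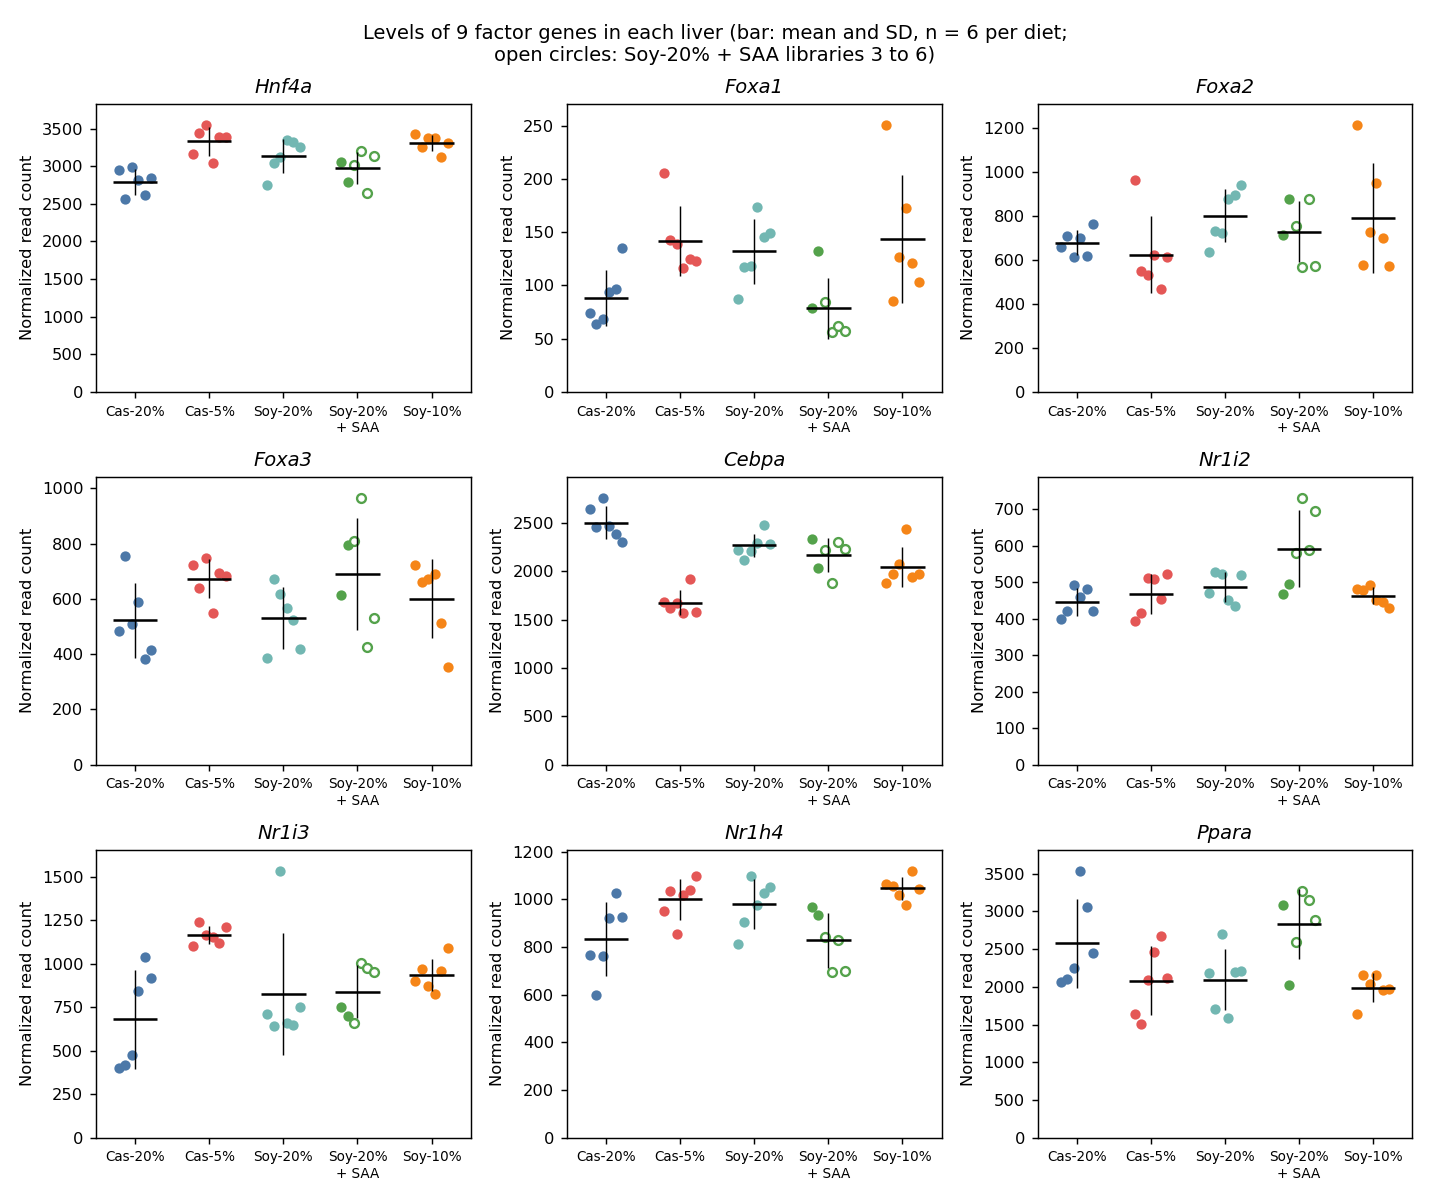
Normalized read counts (y axis, from 0) of the 9 genes in each of 30 livers, by diet (x axis). Each point is 1 liver, the horizontal bar is the mean and the vertical line the SD (n = 6), and open circles are Soy-20% + SAA libraries 3 to 6. Cas-5% livers lie below all Cas-20% livers for *Cebpa* (1571 to 1923 against 2301 to 2757) and above all of them for *Hnf4a* and *Nr1i3*.

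Under casein restriction (Cas-5% minus Cas-20%) *Cebpa* was 32.4% lower, and *Hnf4a* was 20.3%, *Foxa1* 61.8% and *Nr1i3* 72.7% higher. These were 4 of 9 genes, where 24.9% of the 12076 genes tested passed an adjusted p of 0.05 in edgeR's quasi-likelihood test. The livers of both diets did not overlap for 3 of the 9, against 12.9% of all genes. The median log2 fold change of the 9 was 0.27, against 0.016 over all genes tested. In RNA of a whole tissue, fewer cells of a type and less RNA per cell cannot be told apart.

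*Cebpa*, the leucine zipper factor, had the smallest adjusted p of the 9. Its normalized counts ran from 1571 to 1923 (median 1649) in Cas-5% livers and from 2301 to 2757 (median 2461) in Cas-20% livers. Every Cas-5% liver was below every Cas-20% liver. The log2 fold change was −0.56 ± 0.07 (SE, edgeR adjusted p = 1.45e-05), and it stayed between −0.61 and −0.54 when each liver was left out in turn.

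*Hnf4a*, the central factor, moved the other way. Counts ran from 3041 to 3549 (median 3393) in Cas-5% livers and from 2563 to 2987 (median 2832) in Cas-20% livers, again with no overlap. The log2 fold change was 0.27 ± 0.06 (edgeR adjusted p = 0.00496). Without each liver in turn it ran from 0.24 to 0.29, with an adjusted p of at most 0.0157.

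Of the 3 forkhead genes, 1 passed. *Foxa1* ran from 116 to 206 (median 132) in Cas-5% livers and from 64 to 135 (median 84) in Cas-20% livers, so the ranges met, with 3 Cas-5% livers above all controls. Its log2 fold change was 0.69 ± 0.18 (edgeR adjusted p = 0.00778). With the GC slope of each library as a covariate it was 0.43 and the adjusted p 0.0845, so the call was lost. Slopes ran from −0.0691 to 0.0114 in Cas-5% and from −0.0317 to 0.047 in Cas-20% libraries. Since the slope comes from the same counts and differs between diets, the covariate can take up part of a diet effect, here and under soy restriction. *Foxa3* ran from 549 to 748 (median 688) against 383 to 757 (median 496), a log2 fold change of 0.38 ± 0.14 that missed the threshold (edgeR adjusted p = 0.0519). It passed with DESeq2 (adjusted p = 0.0433) and with the covariate (0.59, adjusted p = 0.00773), and also without Cas-20% liver 2 (0.51, adjusted p = 0.00242) or Cas-5% liver 4 (0.43, 0.0373). *Foxa2* ran from 466 to 962 (median 581) against 615 to 761 (median 679). In Cas-5%, 4 livers were below all controls and 1 was above them all (log2 fold change −0.10 ± 0.13, edgeR adjusted p = 0.623). Without the high liver, Cas-5% liver 1 at 962, it was −0.27 ± 0.09 and passed (adjusted p = 0.0324).

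Among the receptors, *Nr1i3* (CAR) had the largest fitted fold change of the 9 under casein restriction. Its counts were 1102 to 1238 (median 1161) in Cas-5% livers and 398 to 1041 (median 659) in Cas-20% livers. The control livers were uneven, at 398, 415 and 474 in livers 1 to 3 and 844, 1041 and 917 in livers 4 to 6, and all Cas-5% livers were above them. The coefficient of variation was 41.7% in Cas-20% and 4.41% in Cas-5%. The log2 fold change was 0.79 ± 0.20 (edgeR adjusted p = 0.00866), between 0.67 and 0.94 without each liver in turn, and 0.59 with the GC slope as a covariate, where the adjusted p was 0.058. Livers 1 to 3 of Cas-20% were also all below livers 4 to 6 for *Foxa1* (64 to 74 against 94 to 135). So they were for *Nr1h4* (598 to 765 against 923 to 1029) and *Ppara* (2064 to 2246 against 2445 to 3538), but not for the other genes. *Nr1i3* split this way in Soy-20% + SAA too (659 to 752 against 950 to 1003), but not in Cas-5%, Soy-20% or Soy-10%. In Cas-5%, *Ppara* split the same way and *Foxa1* the opposite way. Soy-20% livers split the same way for *Hnf4a* (2746 to 3125 against 3259 to 3343), *Cebpa* (2119 to 2214 against 2280 to 2482), *Foxa1* and *Foxa2*. Soy-20% + SAA livers did so for *Nr1i2* (466 to 579 against 587 to 730), and the opposite way for *Foxa1* and *Nr1h4*. Soy-10% livers split the opposite way for *Nr1i2*. The cause was not tested.

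The other 3 receptors did not pass. *Nr1h4* (FXR) ran from 854 to 1098 (median 1029) in Cas-5% livers and from 598 to 1029 (median 844) in Cas-20% livers, a log2 fold change of 0.28 ± 0.11 (edgeR adjusted p = 0.0746) that passed without Cas-20% liver 5 (0.34, adjusted p = 0.027). With the GC slope as a covariate it was 0.095 (adjusted p = 0.548). *Ppara* ran from 1512 to 2679 (median 2105) against 2064 to 3538 (median 2345), a log2 fold change of −0.29 ± 0.15 (adjusted p = 0.182). *Nr1i2* (PXR) was close in both diets, with medians of 481 and 440 and a log2 fold change of 0.09 ± 0.08 (adjusted p = 0.499).

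Sums of some cell type markers also differed between both casein diets, in CPM, which scale to the library total and not by size factors. On the CPM scale mean *Hnf4a* was 337.1 in Cas-5% and 247.7 in Cas-20%, against 3330 and 2795 normalized counts. CPM therefore raised Cas-5% sums relative to Cas-20%. Whether the ranges below separate on the normalized scale was not tested. Summed hepatocyte markers ran from 72270 to 89680 CPM in Cas-5% and 60440 to 67280 CPM in Cas-20% livers, although *Alb* was the 1 higher gene of 5 and *Cps1* was lower. Stellate cell and fibroblast markers summed to 390.6 to 533.8 against 274.7 to 386.5 CPM (2 of 6 genes higher), and endothelial markers to 278.2 to 313 against 216.2 to 256.2 CPM (2 of 6 higher). Lymphocyte markers, of which *Cd3e* was under 1 CPM in every liver, overlapped narrowly, at 11.3 to 15.3 against 15.1 to 39.8 CPM (1 of 3 tested lower). Cholangiocyte markers also overlapped at 37.5 to 50.3 against 35.3 to 54.6 CPM, as did Kupffer cell (174.3 to 278.6 against 158 to 246.5) and red blood cell markers (1134 to 2041 against 1393 to 3087). Of the 5 red blood cell genes, 4 were called lower. Their part in the changes of the 9 genes was not tested.

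Soy restriction, as the study compared it (Soy-10% minus Soy-20% + SAA), gave another set of calls. *Foxa1* and *Nr1h4* were higher and *Nr1i2* and *Ppara* lower, again 4 of 9, where 17% of 11983 genes passed. The livers of both diets did not overlap for 1 of the 9, against 6.22% of all genes. The median log2 fold change of the 9 was 0.11, against −0.0097 over all genes. None of the 4 calls held without Soy-20% + SAA libraries 3 to 6, or with the GC slope as a covariate, where 2.54% and 2.48% of all genes passed. In each of those fits 3 of the 9 had an unadjusted p under 0.05. Leaving out those libraries leaves 2 livers of that diet.

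*Nr1h4* counts ran from 978 to 1120 (median 1050) in Soy-10% livers and from 696 to 967 (median 836) in Soy-20% + SAA livers, with no overlap. Within Soy-20% + SAA, livers 1 and 2 were at 967 and 935 and livers 3 to 6 at 844, 696, 829 and 698. The difference in log2 units was 0.34 ± 0.09 (edgeR adjusted p = 0.0185), and 0.13 without libraries 3 to 6 (adjusted p = 0.434).

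*Ppara* counts ran from 1637 to 2162 (median 2002) in Soy-10% livers and from 2023 to 3275 (median 2983) in Soy-20% + SAA livers. In Soy-10%, 3 livers were below all of the control livers. The difference on the log2 scale was −0.52 ± 0.11 (edgeR adjusted p = 0.00728), and −0.37 without libraries 3 to 6 (adjusted p = 0.192). Its direction held in each of 12 fits that left out 1 liver, with an adjusted p of at most 0.02, as did that of *Nr1h4* with at most 0.0437.

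*Nr1i2* counts were 429 to 492 (median 465) in Soy-10% and 466 to 730 (median 583) in Soy-20% + SAA livers. Livers 1 and 2 of the latter were at 466 and 494, within or next to the Soy-10% range, and livers 3 to 6 at 579, 730, 587 and 693. The log2 fold change of −0.36 ± 0.10 (edgeR adjusted p = 0.0308) became −0.06 without libraries 3 to 6 (adjusted p = 0.792). *Foxa1* counts were 86 to 251 (median 124) against 57 to 132 (median 70), overlapping. Its log2 fold change of 0.88 ± 0.26 (edgeR adjusted p = 0.0359) became 0.44 ± 0.35 without those libraries (adjusted p = 0.583). Both calls were also lost without single livers. *Foxa1* lost its call without any 1 of Soy-20% + SAA livers 3, 4, 5 or 6 or Soy-10% livers 1, 3, 4 or 5 (adjusted p up to 0.0815), and *Nr1i2* without Soy-20% + SAA livers 4, 5 or 6 or Soy-10% livers 1, 2, 4, 5 or 6 (up to 0.0721).

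The remaining 5 genes did not pass under soy restriction. *Hnf4a* ran from 3120 to 3429 (median 3340) against 2646 to 3208 (median 3037), a log2 fold change of 0.15 ± 0.06 (edgeR adjusted p = 0.1), with 5 Soy-10% livers above all controls. *Cebpa* ran from 1876 to 2437 (median 1970) against 1880 to 2328 (median 2225), a log2 fold change of −0.09 ± 0.08 (adjusted p = 0.463). *Nr1i3* was at 0.15 ± 0.11, and at 0.36 without libraries 3 to 6, where *Hnf4a* was at 0.17, *Cebpa* at −0.10, *Foxa3* at −0.23 and *Foxa2* at −0.02. With all livers *Foxa3* (−0.20 ± 0.20) and *Foxa2* (0.11 ± 0.18) had errors as large as, or larger than, their fold changes.

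**Figure D2:**
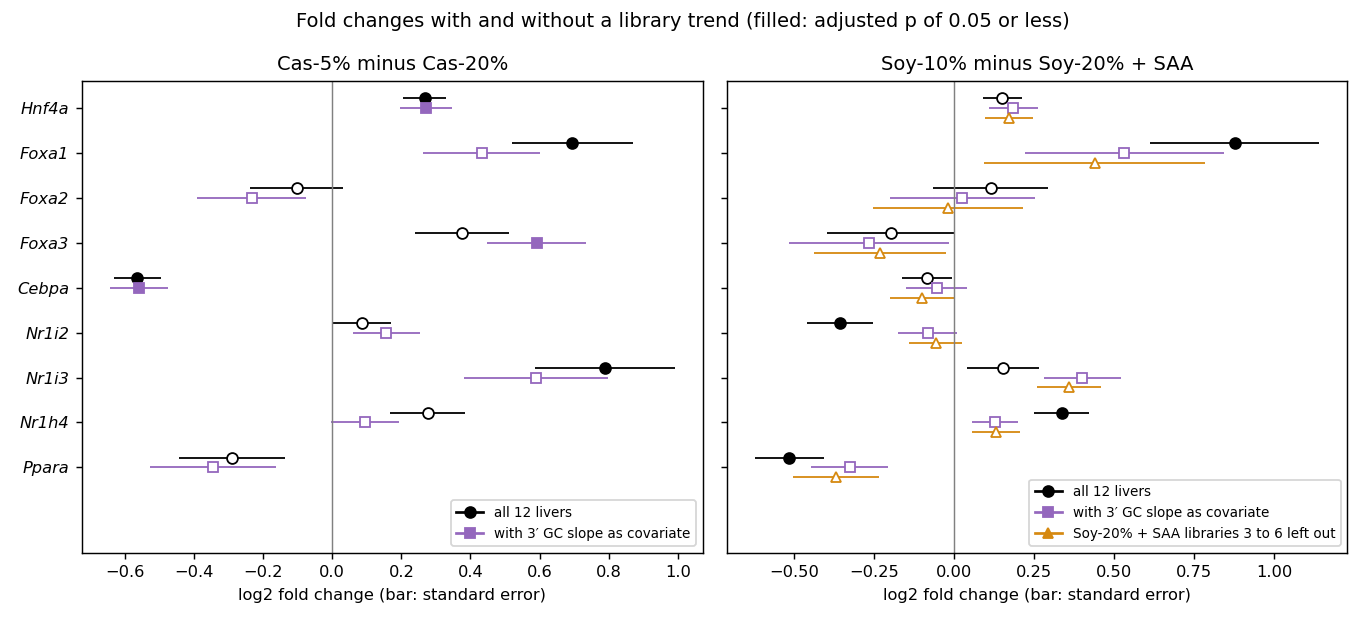
Fold changes (x axis, log2, bar: SE) of the 9 genes under casein restriction (left) and soy restriction (right), with all 12 livers, with the 3′ GC slope as a covariate and, on the right, without Soy-20% + SAA libraries 3 to 6. Filled symbols have an adjusted p of 0.05 or less. On the left *Cebpa* and *Hnf4a* stay filled and *Foxa3* is filled with the covariate alone, and on the right no symbol other than those for all livers is filled.

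Cell type markers overlapped between Soy-10% and Soy-20% + SAA for hepatocytes (65880 to 77960 against 60810 to 74900 CPM), endothelial cells (253.9 to 285.2 against 244 to 298.4) and stellate cells (326.3 to 383.1 against 301 to 448.7). They also overlapped for Kupffer cells (194 to 378.6 against 189.3 to 235), lymphocytes (8.44 to 14.8 against 12.9 to 30.8), cholangiocytes (25.2 to 33.7 against 31 to 48) and red blood cells (641.4 to 3479 against 1061 to 1692). Summed cholangiocyte markers were lower in most Soy-10% livers, with 1 of 2 tested genes lower. In edgeR 1 of 5 hepatocyte and 1 of 3 lymphocyte markers were called lower and 1 of 6 Kupffer cell markers higher. Their part in the results was not tested.

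Against the unsupplemented control (Soy-10% minus Soy-20%), none of the 9 genes passed in edgeR, where 0.866% of 11897 genes did. DESeq2 also called none of the 9. In edgeR 1 of the 9 had an unadjusted p under 0.05, against 1460 of the 11897 genes. That gene was *Cebpa*, at 1876 to 2437 (median 1970) in Soy-10% and 2119 to 2482 (median 2247) in Soy-20% livers. In Soy-10%, 5 livers were below all Soy-20% livers and liver 4, the one with acinar markers, was at 2437. In log2 units the difference was −0.15 ± 0.07 (edgeR adjusted p = 0.362), and −0.21 without that liver (adjusted p = 0.107). The fold changes of all 9 were at most 0.18 in size and their median was 0.07, against −0.0004 over all genes.

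*Nr1i3* in this comparison turned on 1 liver. Soy-20% livers were at 641 to 754 apart from liver 3 at 1534, and Soy-10% livers at 827 to 1088. With all livers the log2 fold change was 0.18 ± 0.18 (edgeR adjusted p = 0.758). Without Soy-20% liver 3 it was 0.45 (adjusted p = 0.00743), and all Soy-10% livers were then above all Soy-20% livers. That fit is 1 of 12 that left out a liver, and is shown because of that liver's own value. With all livers 160 of 11897 genes did not overlap, and the share without liver 3 is not given here. This comparison shares the Soy-10% livers with the one above and uses none of the libraries that stood apart.

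**Figure D3:**
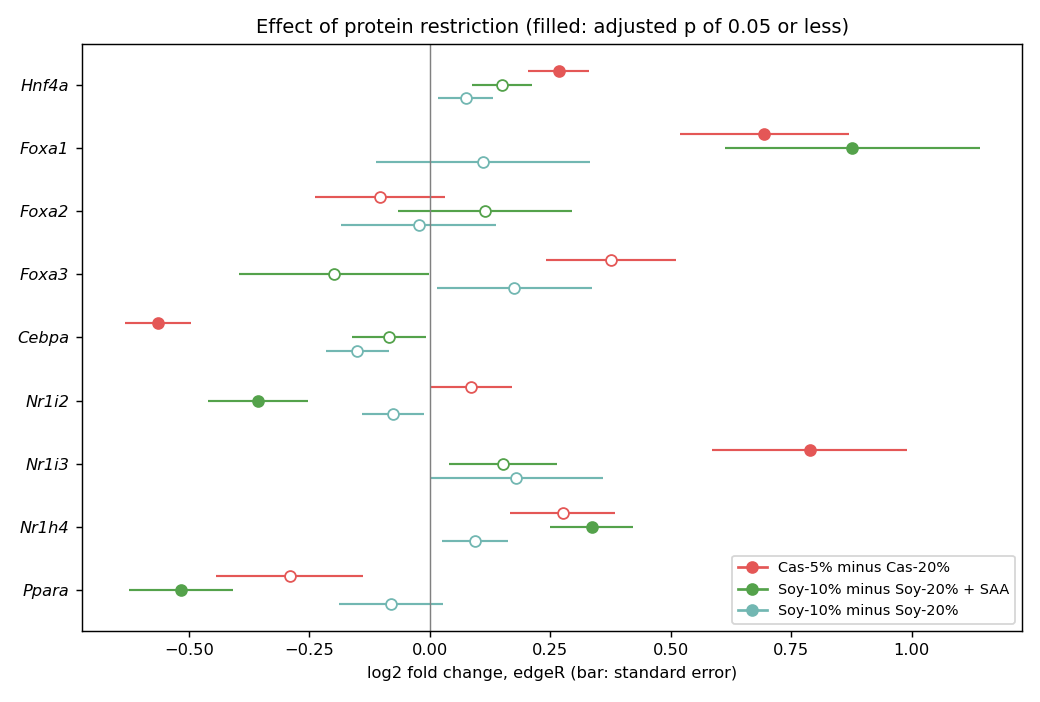
Fold changes (x axis, log2, bar: SE) of the 9 genes (y axis) in 3 restriction comparisons with 6 livers per diet. Filled points have an adjusted p of 0.05 or less. *Cebpa* is at −0.56 under casein restriction and at −0.09 and −0.15 under soy restriction, and all 9 open points of Soy-10% minus Soy-20% lie within 0.18 of 0.

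Adding sulfur amino acids to 20% soy (Soy-20% + SAA minus Soy-20%) gave no call among the 9 in edgeR, where 0.00838% of 11932 genes passed. An unadjusted p under 0.05 was reached by 4 of the 9, against 2892 of the 11932 genes. *Foxa1* was at 57 to 132 (median 70) in Soy-20% + SAA and 87 to 173 (median 132) in Soy-20% livers, and 5 supplemented livers were below all unsupplemented ones. In log2 units this was −0.77 ± 0.21 (adjusted p = 0.0748). *Ppara* was at 0.42 ± 0.13 (adjusted p = 0.0905), with 4 supplemented livers above all others, *Nr1i2* at 0.27 ± 0.11 (0.146) and *Nr1h4* at −0.25 ± 0.10 (0.153). DESeq2 called *Foxa1* (adjusted p = 0.0178) and *Ppara* (adjusted p = 0.0422). In edgeR *Foxa1* passed without Soy-20% + SAA liver 1 (adjusted p = 0.0397) or liver 2 (0.0267), *Nr1i2* without liver 1 (0.0444) and *Ppara* without liver 2 (0.0321), the 2 livers of that diet that did not stand apart. Without libraries 3 to 6 none of the 9 passed in edgeR, 1 had an unadjusted p under 0.05, and *Foxa1* was at −0.33, *Ppara* at 0.29, *Nr1h4* at −0.04 and *Nr1i2* at −0.02. With the GC slope as a covariate *Foxa1* was at −0.30 (adjusted p = 0.682).

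Casein and soy at equal sulfur amino acids (Soy-20% + SAA minus Cas-20%) also gave no call among the 9 in edgeR, where 2.43% of 11988 genes passed. At an unadjusted p under 0.05 there were 2 of the 9, against 3143 of the 11988 genes. *Nr1i2* came closest, with 466 to 730 (median 583) in Soy-20% + SAA and 398 to 492 (median 440) in Cas-20% livers, and 5 of the former above all of the latter. Its log2 fold change was 0.41 ± 0.11 (edgeR adjusted p = 0.0561), and it passed with DESeq2 (adjusted p = 0.0153) and in edgeR without Soy-20% + SAA liver 1 (0.014) or liver 2 (0.0296). *Cebpa* was at −0.21 ± 0.07 (edgeR adjusted p = 0.0965), with 5 of 6 Soy-20% + SAA livers below all Cas-20% livers. Without libraries 3 to 6 none of the 9 passed in edgeR, and 0 had an unadjusted p under 0.05. *Nr1i2* was then at 0.11 (adjusted p = 0.864) and *Cebpa* at −0.19, and with the GC slope as a covariate *Nr1i2* was at 0.20.

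The restricted diets, which held nearly equal methionine, differed in 2 of the 9 genes (Soy-10% minus Cas-5%), where 10.7% of 12041 genes passed. Protein content differed too, at 11.5% in Soy-10% and 5% in Cas-5%, so protein source and protein content cannot be told apart here. *Nr1i3* was lower in Soy-10%, at 827 to 1088 (median 930) against 1102 to 1238 (median 1161) in Cas-5%. It was the 1 gene of the 9 whose livers did not overlap, against 5.86% of all genes. As a log2 fold change this was −0.33 ± 0.07 (edgeR adjusted p = 0.00292), and it kept its call in each of 12 fits without 1 liver. In a single fit of all 30 livers it was −0.32 with an adjusted p of 0.397.

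*Cebpa* was higher in Soy-10%, at 1876 to 2437 (median 1970) against 1571 to 1923 (median 1649), with 5 Soy-10% livers above all Cas-5% livers. Its log2 fold change was 0.27 ± 0.07 (edgeR adjusted p = 0.0211). The call was lost without Cas-5% liver 4 (adjusted p = 0.0521). *Hnf4a* was at −0.03 ± 0.06 (adjusted p = 0.809), with medians of 3340 and 3393. None of the libraries that stood apart enters this comparison. Summed stellate cell and fibroblast markers (326.3 to 383.1 CPM in Soy-10% against 390.6 to 533.8 in Cas-5%) and cholangiocyte markers (25.2 to 33.7 against 37.5 to 50.3) did not overlap between both diets. CPM also raised Cas-5% relative to Soy-10%, with mean *Hnf4a* at 337.1 and 312.9 CPM against 3330 and 3310 normalized counts. The part of these markers in the results was not tested.

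The casein effect minus the soy effect, tested as an interaction in 24 livers, passed for 2 of the 9 genes, where 8.69% of 12532 genes did. Protein fell from 20% to 5% in the casein arm and from 20% to 11.5% in the soy arm. A difference between the effects therefore cannot be assigned to protein source alone. For *Cebpa* the difference was −0.48 ± 0.10 (edgeR adjusted p = 0.00526), from −0.56 under casein and −0.09 under soy restriction. It kept its call in all 24 fits without 1 liver, with the GC slope as a covariate and without libraries 3 to 6. For *Nr1i2* it was 0.44 ± 0.14 (edgeR adjusted p = 0.0448), and this call was lost without libraries 3 to 6 (0.14, adjusted p = 0.661). It was also lost in 18 of 24 fits without 1 liver and kept only without Cas-20% liver 3 or 5, Cas-5% liver 1 or 2, or Soy-20% + SAA liver 1 or 2. The difference was 0.63 ± 0.25 for *Nr1i3* (adjusted p = 0.112, and 0.0421 without Cas-20% liver 5), 0.57 ± 0.26 for *Foxa3* (0.159) and 0.11 ± 0.08 for *Hnf4a* (0.418). These were 0.42, 0.60 and 0.09 without libraries 3 to 6.

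Over all 5 diets, 7 of the 9 genes differed in edgeR's test of any diet, where 43.4% of 12561 genes did. *Foxa2* (adjusted p = 0.265, and 0.0471 without Cas-5% liver 1) and *Foxa3* (0.165) did not pass. Without libraries 3 to 6, or with the GC slope as a covariate, 3 of the 9 passed, *Cebpa*, *Hnf4a* and *Nr1i3*. Of all genes, 26.2% and 28.2% passed in those fits. The call of *Nr1i3* was lost without Cas-20% liver 2 or 3 or Cas-5% liver 2 (adjusted p up to 0.053). For *Cebpa* the order of mean levels was Cas-20% (2502 ± 168, SD), Soy-20% (2266 ± 123), Soy-20% + SAA (2165 ± 173), Soy-10% (2044 ± 202) and Cas-5% (1675 ± 130). The 3 soy diets did not differ from each other past the threshold, and Soy-10% and Cas-5% did. For *Hnf4a* the order was Cas-5% (3330 ± 188), Soy-10% (3310 ± 111), Soy-20% (3139 ± 224), Soy-20% + SAA (2977 ± 214) and Cas-20% (2795 ± 173).

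Lists of related genes, written by hand from textbook knowledge, were counted in the same fits. Over all genes 1397 were higher and 1611 lower of 12076 (24.9% called) under casein restriction, and 1020 higher and 1015 lower of 11983 (17%) under soy restriction, and no list was tested against them. Of 18 other hepatocyte-enriched transcription factors, 5 were higher and 2 lower under casein restriction (median log2 fold change −0.02, against 0.016 over all genes). *Cebpg*, a family member of *Cebpa* that pairs with ATF4, had a log2 fold change of 0.63 ± 0.08 (edgeR adjusted p = 1.3e-05), *Tbx3*, a T-box factor, 0.87 ± 0.14 (0.000183), and *Tef*, a clock-controlled factor, −0.53 ± 0.11 (0.00182). *Klf15*, a factor of gluconeogenesis and amino acid breakdown, was at −0.38 ± 0.07 (0.000476), and *Atf5*, a factor of the stress response, at 0.61 ± 0.13 (0.00213). Under soy restriction 5 were higher and 1 lower. Without libraries 3 to 6 edgeR called 0, with 3 at an unadjusted p under 0.05.

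Of 32 partner, sister and cofactor genes of the nuclear receptors, 2 were higher and 7 lower under casein restriction (median −0.06), a share near that of all genes. *Esr1*, the estrogen receptor, was at −0.75 ± 0.13 (edgeR adjusted p = 0.000386), *Rara*, a retinoic acid receptor, at −0.59 ± 0.10 (0.000289), *Nr1d1*, the clock repressor REV-ERB alpha, at −0.56 ± 0.08 (0.000118) and *Nr1h3*, the oxysterol receptor LXR alpha, at −0.28 ± 0.06 (0.00399). *Ncor1*, the corepressor, was at 0.39 ± 0.08 (0.00121). Under soy restriction 3 were higher and none lower (5 and 3 at an unadjusted p under 0.05). Without libraries 3 to 6 edgeR called 0, with 8 at an unadjusted p under 0.05.

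Known HNF4A target genes were lower or did not pass under casein restriction, where *Hnf4a* itself was higher. Of 15 tested, 0 were higher and 7 lower in edgeR (median −0.18), 0 and 7 also at an unadjusted p under 0.05. With the GC slope as a covariate 5 were lower, where 20.2% of all genes passed. *Otc*, a urea cycle enzyme, was at −0.73 ± 0.07 (edgeR adjusted p = 1.39e-06), and the apolipoprotein genes *Apoc3* (−0.64 ± 0.08, 1.53e-05), *Apoa4* (−1.47 ± 0.25, 0.000328) and *Apoa2* (−0.36 ± 0.09, 0.00839) were lower too, as was the clotting factor gene *F7* (−0.35 ± 0.07, 0.0011). Under soy restriction 0 were higher and 3 lower (1 and 8 at an unadjusted p under 0.05), and without libraries 3 to 6 *Apoa4* alone passed (−1.31, adjusted p = 0.0239).

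Of 10 target genes of the forkhead factors and CEBPA, 2 were higher and 4 lower under casein restriction (median −0.22). The lower ones included the urea cycle genes *Ass1* (−2.39 ± 0.16, edgeR adjusted p = 3.81e-08) and *Cps1* (−1.40 ± 0.15, 4.06e-06) and the tyrosine aminotransferase gene *Tat* (−1.63 ± 0.26, 0.000205). The higher ones were *Igfbp1*, an insulin-repressed binding protein (2.03 ± 0.28, 5.71e-05), and *Alb* (0.35 ± 0.09, 0.011), whose call was lost with the GC slope as a covariate (0.28, adjusted p = 0.0778). Under soy restriction *Ass1* alone passed (−0.88 ± 0.11, 0.000325), and without libraries 3 to 6 *Ass1* (−0.76) and *Cps1* (−0.61) were lower. *Ass1* also fell against Soy-20% (−0.87 ± 0.11, edgeR adjusted p = 0.0013), so the list had 1 lower gene there.

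Target genes of *Nr1i2* and *Nr1i3* moved both ways under casein restriction, with 2 higher and 4 lower of 14 tested (median −0.09). *Cyp3a11* (1.06 ± 0.13, edgeR adjusted p = 1.11e-05) and *Cyp2c37* (0.94 ± 0.18, 0.000937) were the higher ones. *Cyp2c29* (−0.59 ± 0.13, 0.00229), *Cyp3a25* (−0.52 ± 0.11, 0.00194) and the uptake transporter gene *Slco1a4* (−0.91 ± 0.20, 0.00323) were among the lower ones. The Cyp genes belong to families of near-identical copies, and how the authors' counting split reads between copies is not given in the sources used here. Under soy restriction 2 were higher and 1 lower of 14, and 1 and 1 of 15 without libraries 3 to 6. The lower one was *Slco1a4* (−0.79 ± 0.15, edgeR adjusted p = 0.00476), at −0.80 without those libraries (0.0453). *Cyp2c37* rose by 1.10 ± 0.11 on the log2 scale (0.000134), by 1.01 without libraries 3 to 6 (adjusted p = 0.000724) and by 0.38 ± 0.08 against Soy-20% (0.0341).

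Of 9 tested bile acid genes controlled by *Nr1h4*, 2 were higher and 2 lower under casein restriction (median 0.06). The list was not split into genes that FXR induces and genes that it represses, so these counts carry no direction. *Cyp7a1*, the rate-limiting enzyme of bile acid synthesis, had a log2 fold change of 1.14 ± 0.22 (edgeR adjusted p = 0.00106), and *Abcb4*, the phospholipid export pump, 0.50 ± 0.10 (0.00119). *Nr0b2*, the FXR-induced repressor SHP, was at −0.56 ± 0.15 (0.0134) and *Slc27a5*, a bile acid CoA ligase, at −0.44 ± 0.06 (7.68e-05). Under soy restriction *Baat*, which conjugates bile acids to taurine, was higher (0.72 ± 0.17, 0.0129) and *Slc27a5* lower (−0.22 ± 0.06, 0.0252), and neither passed without libraries 3 to 6.

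Of 23 PPARA target genes tested, 8 were higher and 1 lower under casein restriction (median 0.19), where *Ppara* did not pass. With the GC slope as a covariate 3 were higher and 1 lower, where 20.2% of all genes passed. *Cyp4a14*, a fatty acid hydroxylase, had a log2 fold change of 2.68 ± 0.58 (edgeR adjusted p = 0.00281), and *Acot1*, an acyl-CoA thioesterase, 1.79 ± 0.33 (0.000719). Under soy restriction 6 were higher and 2 lower, and 4 and 0 without libraries 3 to 6. *Acot1* rose by 1.43 ± 0.20 (0.000667) and *Cyp4a14* by 1.15 ± 0.36 (0.0418), and both passed without those libraries (1.46 and 2.21). *Cpt1a*, the gate of fatty acid entry into mitochondria, was at −0.50 ± 0.10 (0.00614) and *Slc25a20*, the carnitine carrier, at 0.57 ± 0.12 (0.00828) under soy restriction, and neither passed without them. Against Soy-20%, 0 of the 23 passed in edgeR, with 5 higher and 0 lower at an unadjusted p under 0.05.

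**Figure D4:**
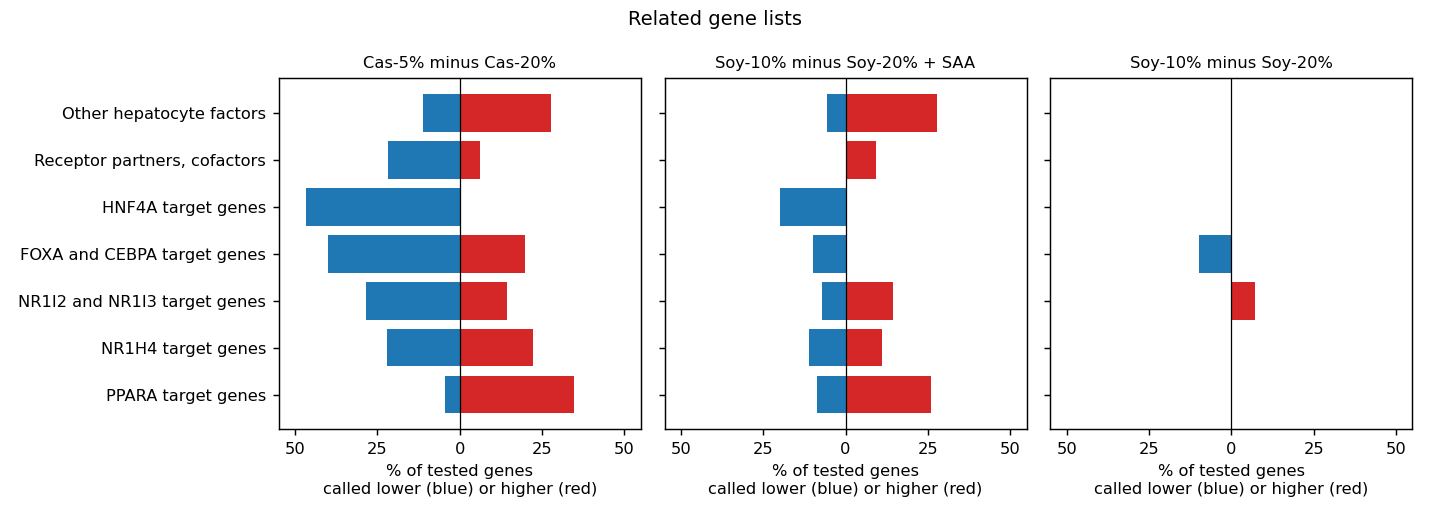
Share of tested genes in 7 related lists (y axis) that passed an adjusted p of 0.05 in edgeR, in % of the genes tested (x axis), lower to the left in blue and higher to the right in red, in 3 restriction comparisons. HNF4A targets have 7 of 15 lower and 0 higher under casein restriction, and PPARA targets 8 of 23 higher and 1 lower. Soy-10% minus Soy-20% has 1 lower and 1 higher gene over all lists.

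For each of the 9 genes, the genes whose log2 CPM followed it most closely over the 30 livers were found by Pearson's r, as a description, since the points share libraries, depth and diet. *Cebpa* was closest to *Tiam2* (r = 0.907, and 0.911 over 26 livers without libraries 3 to 6) and *Bhlhe40* (0.819), and *Hnf4a* to *Pcp4l1* (0.904) and *Unc13b* (0.895). *Nr1i3* was closest to *Lgals4* (0.91, and 0.922 over 26 livers). *Nr1h4* was closest to *Fam89a* (0.907) and *Bfar* (0.904), and *Ppara* to *Fam160b1* (0.829) and *Jarid2* (0.794). The values fell without libraries 3 to 6 for *Foxa1* with *G3bp1* (0.843, then 0.754) and *Abhd17b* (0.838, then 0.773), and for *Nr1i2* with *Naa60* (0.846, then 0.713) and *Dctn2* (0.836, then 0.703). *Foxa2* was closest to *Phlda1* (0.802) and *Cish* (0.801), and *Foxa3*, with the lowest values, to *Tnrc6b* (0.732) and *Nsd3* (0.73).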

How the data were processed

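Liver RNA of 30 mice, 6 per diet, was grouped by the diet in the labels. The authors made 3′ tag libraries (Lexogen QuantSeq), sequenced them on a NextSeq 500 and processed them with pipeline 2.3.6 against GRCm38. The aligner and annotation release are not given in the sources used here. The first deposited table holds raw counts per gene, and the second a normalized signal per gene, in which the authors divided each library's counts by its DESeq2 size factor (0.759 to 1.3). R 4.0.3 and DESeq2 1.30 are named in the submitters' processing notes. Read length is given differently in the labels and the paper.

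Levels are printed as the deposited normalized counts. Tests used the raw counts in R 4.3.3 with edgeR 4.0.16: filterByExpr, TMM, and the two-sided quasi-likelihood F test on the livers compared, with Benjamini-Hochberg adjustment over all genes tested at 0.05. Fold changes are log2 with their SE. Mice are the replicates, and no batch is given in the labels. Symbols missing for 1718 genes were filled from GENCODE M21 for 1684. Alternatives were DESeq2 1.42.0, other size factors, no filter, a fit of all livers, a replicate block, a GC slope covariate, leaving out Soy-20% + SAA libraries 3 to 6 and each liver in turn. List counts under the covariate or without those libraries were added after seeing the data. The fits were tested on simulated counts for casein and soy restriction. Those counts had no GC trend and no split of livers within a diet, so they do not cover these features. From each list, up to 5 genes with the smallest adjusted p are named. Marker lists are summed as CPM. The genes and lists were chosen with earlier results of these data known. Marker and target genes absent from the tables, such as *Cftr*, were not used here. Some genes that the naming rule chose are not reported here.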

Additional observations from a re-analysis of the deposited data

Results flagged for a closer look

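Of 45 groups of 6 livers, 1 per gene and diet, 6 held a liver far from the others by Dixon's ratio, and chance flags about 1 in 20 groups. Cas-5% liver 1 was high in both *Foxa1*, at 205.8 normalized counts, and *Foxa2*, at 961.6. *Cebpa* was high in Cas-5% liver 5, at 1922.9, and in Soy-10% liver 4, at 2437.2, the liver with pancreatic acinar markers at 554.7 CPM. *Foxa1* was high in Soy-20% + SAA liver 2, at 132.5. *Nr1i3* was high in Soy-20% liver 3, at 1534.5.

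The effects of casein and soy restriction differed for 2 genes by a test of the difference itself, and both control diets enter it. The difference was −0.485 for *Cebpa*, and 0.436 for *Nr1i2*, whose call was lost without Soy-20% + SAA libraries 3 to 6.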

How the results depend on the processing

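The number of the 9 genes that passed changed with the setting. Under casein restriction it went from 4 to 5 with DESeq2, 5 in 1 fit of 30 livers, 6 with the replicate block and 3 with the GC slope as a covariate. The count under soy restriction fell from 4 to 2 with the replicate block, and to 0 with the GC slope as a covariate and 0 without Soy-20% + SAA libraries 3 to 6. For added sulfur amino acids it was 2 with DESeq2 and 3 in 1 fit of 30 livers, for the control diets 1 and 2, and for the restricted diets 1 in the fit of 30 livers and 3 with the block, where *Foxa2* passed (adjusted p = 0.0406). For the difference of effects it was 1 without a filter, 1 with the covariate and 1 without libraries 3 to 6. For any diet it was 8 with the block, 3 with the covariate and 3 without those libraries. Leaving out single livers gave 4 to 5 genes under casein restriction, 2 to 4 under soy restriction, 0 to 1 against Soy-20%, 0 to 2 for added sulfur amino acids, 0 to 1 for the control diets, 1 to 2 for the restricted diets, 1 to 3 for the difference and 6 to 8 for any diet. The causes were not tested.

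Of all genes tested, 24.9% passed under casein restriction in the main fit and 25.3% with DESeq2. The share was 24.6% in the fit of 30 livers, 22% with the replicate block and 20.2% with the covariate. For the restricted diets, 10.7% became 7.2% in the fit of 30 livers and 11.4% with the block. Over all genes, the soy restriction count of 2035 became 3077 in the fit of 30 livers and 2014 with the block. It was 297 with the covariate and 317 without libraries 3 to 6. That of added sulfur amino acids went from 1 to 873 with DESeq2 and 1793 in the fit of 30 livers. That of the control diets went from 291 to 1130 and 2331, and to 141 with the replicate block, 9 with the covariate and 3 without those libraries. Against Soy-20% it went from 103 to 216 and 62. The difference count of 1089 became 1002 without a filter, 614 with the covariate and 296 without those libraries. That of any diet went from 5450 to 5356 with the block, 3545 with the covariate and 3433 without those libraries.

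Directions turned for values that had not passed. Without libraries 3 to 6, *Foxa2* under soy restriction was −0.0201. For added sulfur amino acids, *Foxa2* was 0.0271 with the covariate, *Nr1i3* −0.27 with it and −0.18 without the libraries, and *Nr1i2* −0.0215 without them. For the control diets, *Foxa1* was 0.22 and 0.25, *Nr1h4* 0.19 and 0.19, and *Ppara* −0.00905 without the libraries. For the difference, *Foxa1* was 0.13 and 0.25 and *Nr1h4* 0.14 and 0.14. For the restricted diets *Foxa1* was 0.0053 in the fit of 30 livers. Without single livers, *Foxa2* under soy restriction ran from −0.0507 to 0.192. Against Soy-20%, *Foxa1* ran from −0.12 to 0.23, *Foxa2* from −0.185 to 0.0545 and *Ppara* from −0.147 to 0.00549. *Nr1i3* ran from −0.0467 to 0.291 for added sulfur amino acids, and *Nr1h4* from −0.0838 to 0.0662 for the control diets. *Foxa1* ran from −0.24 to 0.13 for the restricted diets and from −0.394 to 0.0469 for the difference, where *Nr1h4* ran from −0.146 to 0.00907.

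Livers with the same number deviated together in 15 of 60 pairs by a correlation over 0.1 (−0.201 to 0.292), so the numbers were not taken as pairs. With the replicate block, *Foxa1* (adjusted p = 0.053) and *Nr1i2* (0.0614) lost their soy calls, and *Nr1h4* (0.0494) and *Ppara* (0.0179) passed under casein restriction. *Foxa1* had the fewest raw counts of the 9, 59 to 247 per liver.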
